A study of Mus musculus with 8 samples.

Results

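The semaphorin, ephrin, Slit and netrin guidance genes were examined in mouse hepatic stellate cells, the pericytes of the liver that store vitamin A and become matrix-producing myofibroblasts on activation. Members were taken by gene symbol alone: semaphorins of classes 3 to 7, plexins, neuropilins, ephrins, Eph receptors, Slits, Robos, netrins and Unc5 receptors. The rule found 51 of the 14162 genes in the deposited table. RNA sequencing covered 8 libraries in 4 groups of 2, lettered a and b. One group was quiescent and 3 were activated, namely without a microRNA, with miR-15a, or with a microRNA that served as control. The series was made to find likely targets of miR-15a. All groups are labelled as hepatic stellate cells, and C57BL/6J and SCID mice are both listed, with no library tied to a strain, an age or a treatment time. They do not say how the cells were activated, how the microRNAs were delivered, or whether libraries a and b came from separate animals or cultures, so each p-value covers the spread of these libraries alone, and that spread may be technical.

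Guidance cues are secreted or membrane-bound proteins that were first known for steering growing axons and that also act on the shape, adhesion and migration of endothelial, immune and mesenchymal cells. Semaphorins signal through plexins, and most secreted class 3 semaphorins also need a neuropilin as co-receptor. Ephrins and Eph receptors are both tethered to membranes and signal into both contacting cells, Slits repel cells through Robo receptors, and netrins act through DCC, neogenin and the Unc5 receptors. In the liver, the sinusoidal endothelium and the stellate cells that wrap it are both known to express several of these receptors.

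The unit of every value below is a score, a normalised whole number that is not a raw read count. All 8 libraries held the same 910 distinct values and totals between 10193036 and 10234768, so the sequencing depth behind each score is unknown and no counting interval is given. High scores lie on shared steps, and libraries of a group can be tied. Fold changes are on the log2(score + 5) scale, on which changes of low genes come out too small, and are given with their standard error (SE) from limma over 13150 genes that passed a filter on low scores. A gene was called at a Benjamini-Hochberg adjusted p under 0.05. Of the members, 50 passed the filter, and Plxnb3, a plexin listed at no more than 7 in any library, did not.

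Markers of other cell types moved with the groups and stand beside every result below. The summed score of 20 endothelial markers lay between 218127 and 289585 in quiescent, 1386 and 1597 in activated, 13932 and 14306 in miR-15a and 2018 and 2573 in control libraries. That of the 18 Kupffer cell and macrophage markers in the table, of 20 listed, lay between 164994 and 186334, 1951 and 2161, 14249 and 15789, and 2510 and 2777 in the same order. None of these markers was at 0 in both libraries of any group. The 12 hepatocyte markers in the table summed to between 10242 and 12449 in quiescent libraries and to at most 1844 elsewhere. The table holds 8 of 10 mesothelial and portal fibroblast markers. They summed to at most 582 in quiescent and at least 59302 in all other libraries. Fbln2 alone was at 58193 in each of the latter. The median over these markers was 15.0 in quiescent, 66.25 in activated, 79.0 in miR-15a and 84.25 in control libraries. On activation 5 of them rose and 2 fell. The 4 Schwann cell and neuron markers in the table summed to at most 61 in quiescent, 1542 in activated, 1823 in miR-15a and 3461 in control libraries. The 2 cholangiocyte markers summed to at most 75, 801, 551 and 786 in the same order, mostly from Spp1. Of the 16 listed markers of quiescent stellate cells 12 are in the table. They summed to between 14379 and 15261 in quiescent libraries and between 6183 and 9338 in the others, and 5 of them rose and 7 fell on activation. Reln made up most of the sum in quiescent libraries (7724 and 8724). Pdgfrb, which rose, made up most of that in activated libraries (7286 and 7720). The median over these markers was 560 in quiescent, 143.5 in activated, 113.75 in miR-15a and 147.25 in control libraries. The 11 myofibroblast markers in the table summed to at most 5123 in quiescent and at least 360641 in all other libraries. Xist, expressed in female cells, was at 8724 in both quiescent libraries, 169 and 21 in activated, 3373 in both miR-15a and 3373 and 5027 in control libraries. Ddx3y, on the Y chromosome, was at 44 and 40, 2606 and 2570, 1046 and 1006, and 1282 and 1268. The part of these differences in the guidance genes was not tested, and fewer cells of a type cannot be told apart from less RNA per cell.

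The sequence of miR-15a is shown first because the series asks which RNAs it targets. The mature strand, mmu-miR-15a-5p, lies on the minus strand at chr14:61632075-61632096 of GRCm38.p6 in RefSeq's table. Its seed, positions 2 to 8 counted from the 5′ end, is in capitals. The seed is shared by 10 mature names there, among them miR-15b, miR-16, miR-195a, miR-322 and miR-497a.
mmu-miR-15a-5p: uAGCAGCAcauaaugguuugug

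The match to this seed on a transcript reads TGCTGCT. The search covered the sense strand of the longest 3′ UTR that GENCODE M21 (GRCm38) gives for a gene. The windows below are from 5 of the members with a match that were called with miR-15a in at least one comparison. The windows are each 30 bases long with the match in capitals, and all lie in the last exon of their gene. They are from Sema5a (2 matches, chr15:32692755-32692761 and chr15:32695614-32695620, plus strand), Plxna2 (2 matches, chr1:194812460-194812466 and chr1:194815635-194815641, plus strand), Plxnc1 (chr10:94791976-94791982, minus strand), Sema6d (chr2:124666204-124666210, plus strand) and Epha7 (chr4:28964075-28964081, plus strand). Those of Sema6d and Epha7 are followed by an A. Sema4b and Plxnb1, with 1 match each, are not shown. Both were called lower with miR-15a against activated cells without a microRNA. These calls were lost with median-ratio scaling and with only the libraries compared.
Sema5a, first: tctgctaattaTGCTGCTgcgtgccctctg
Sema5a, second: ctgtgtgggacTGCTGCTggctagtgagta
Plxna2, first: gcctctgtgacTGCTGCTttgcatgaaaat
Plxna2, second: cagcacaacctTGCTGCTtatgctcctgac
Plxnc1: tcccaaattttTGCTGCTcgtgaccaattt
Sema6d: aaataattttgTGCTGCTatccatcagaac
Epha7: tacgcatagaaTGCTGCTagaagacagttg

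Nearly the whole set of members differed between activated and quiescent cells, and most were lower in activated cells. In activated against quiescent cells 14 members rose and 33 fell, with 3 not called. Among the falls, Sema4a, Sema4g, Robo3 and Efnb3 scored 10 or more only in quiescent libraries. They passed the filter through those libraries alone. Epha1 scored 10 or more in quiescent libraries and, at 13, in control library b, but in no other. It too passed only with a quiescent library. The falls of all these genes are thus not independent of the filter. The counts of falls here and below include them. Of the 47 calls, 46 were kept in the same direction without a filter. With a filter of at least 50 in at least 2 libraries, which left these genes out, 37 were kept. Over all genes tested 79.5% were called, 45.4% higher and 34.1% lower, against 94% of the members called, 28% higher and 66% lower. With median-ratio scaling of the libraries 9 members were higher and 35 lower. That scaling moved the median fold change of all genes by -0.27 and their split from 5968 higher and 4483 lower to 4775 higher and 5414 lower. Of the members, 30 fell by more than 1 on the log2 scale, where 21.7% of all genes did, and 9 rose by more than 1, where 24% of all genes did. The median member changed by -1.40, the median gene by 0.21.

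**Figure D1:**
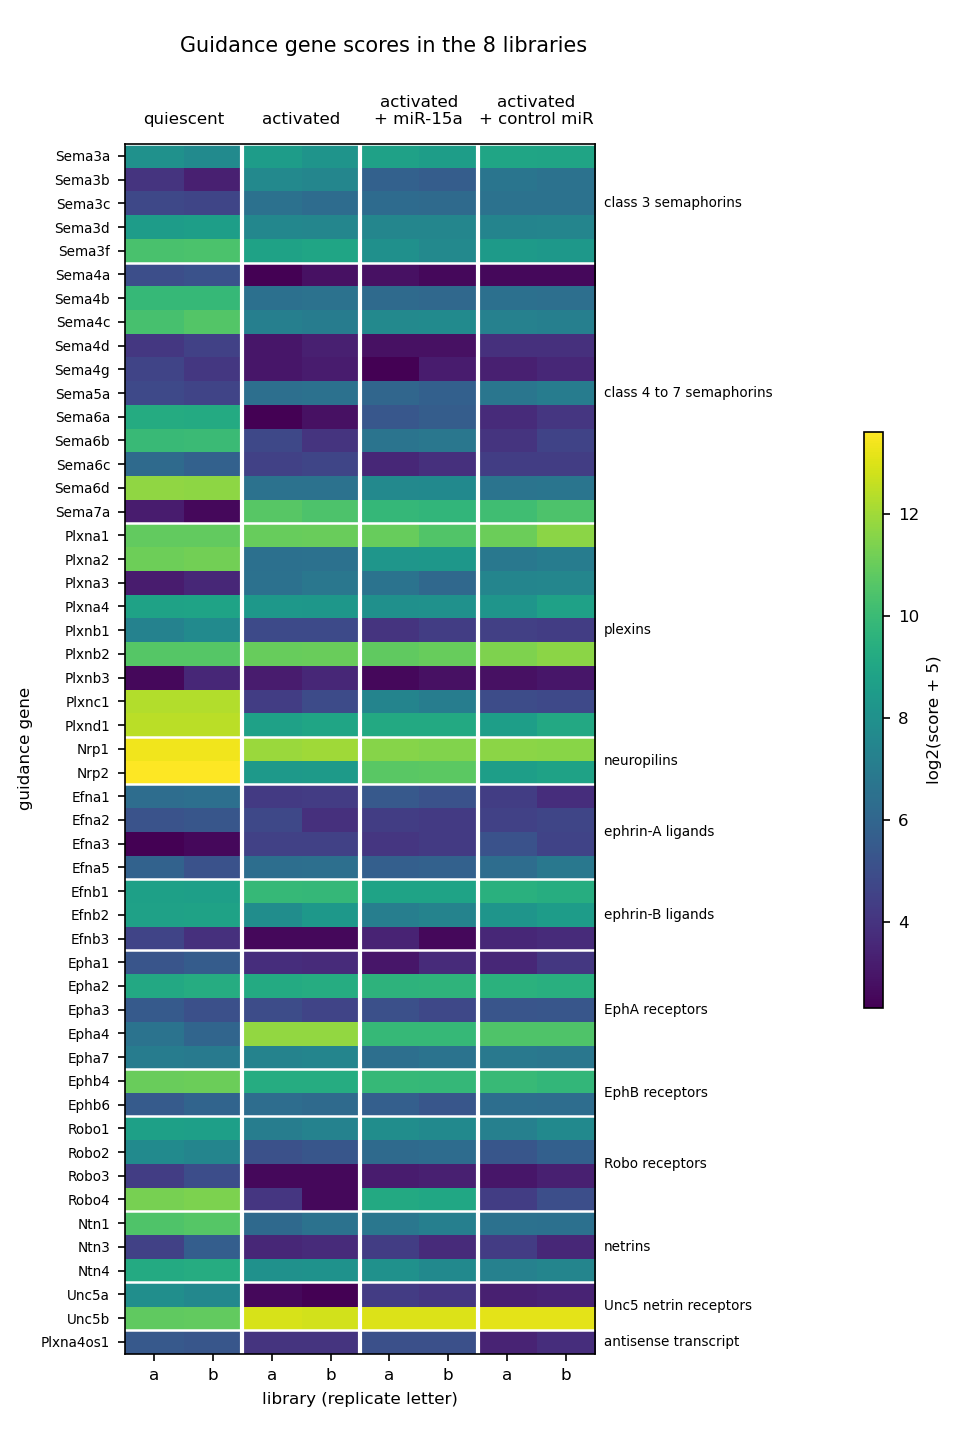
Colour gives log2(score + 5) of each of the 51 guidance genes (rows, grouped by role) in each of the 8 libraries (columns, letters a and b within 4 groups). Neuropilins, Plxnc1 and Plxnd1 are brightest in quiescent libraries, and Unc5b is brightest in the other 3 groups.

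The secreted class 3 semaphorins went both ways. Sema3b, a ligand of neuropilins first known as a candidate tumour suppressor, scored 11 and 5 in quiescent and 195 and 179 in activated libraries. It rose by 3.92 ± 0.23 (limma, adjusted p = 2e-06), and the groups did not overlap. Sema3f, a ligand of Nrp2 that repels endothelial and tumour cells, scored 1332 and 1363 in quiescent and 452 and 489 in activated libraries, a change of -1.51 ± 0.12 (limma, adjusted p = 1.2e-05). These genes lie 72.3 kb apart on chromosome 9 and moved in opposite directions. Sema3c, known for its part in outflow tract development of the heart, rose from 22 and 21 to 89 and 74, by 1.70 ± 0.14 (limma, adjusted p = 1.7e-05). Sema3a, the classical axon repellent that binds Nrp1, went from 261 and 208 to 370 and 280, a change of 0.46 ± 0.16 (limma, adjusted p = 0.029) that was not called with median-ratio scaling, with only the 4 libraries compared, or without quiescent library b or activated library a. Sema3d fell from 378 and 392 to 181 and 176.

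Of the 11 membrane-bound semaphorins of classes 4 to 7, 2 rose and 9 fell. Sema7a, which is anchored by a lipid and binds integrins and Plxnc1, had the largest rise of all members. It was at 4 and 1 in quiescent libraries and at 1634 and 1408 in activated libraries, a change of 7.69 ± 0.19 (limma, adjusted p = 2.6e-08). Sema5a, a transmembrane semaphorin with thrombospondin repeats, scored 23 and 20 in quiescent and 82 and 88 in activated libraries and rose by 1.76 ± 0.17 (limma, adjusted p = 4.1e-05).

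All 4 class 6 semaphorins in the table, transmembrane ligands of the A-type plexins, fell. Sema6a scored 615 and 588 in quiescent and 0 and 2 in activated libraries, a change of -6.68 ± 0.23 (limma, adjusted p = 1.1e-07). Sema6b went from 1014 and 1019 to 22 and 11, a change of -5.62 ± 0.28 (limma, adjusted p = 8e-07). Sema6d, which has a part in heart development, scored 3373 and 3317 in quiescent libraries and 91 and 92 after activation (-5.12 ± 0.07, limma, adjusted p = 3.4e-09). Sema6c was low throughout, at 69 and 52 against 18 and 21. The class 4 genes fell too: Sema4b by 3.36, Sema4c by 3.33, Sema4a by 2.54, Sema4g by 1.32 and Sema4d, a ligand of Plxnb1 that also acts on lymphocytes, by 1.19 on the log2 scale. Of these, Sema4a, Sema4d and Sema4g had no score above 31 in any library, and Sema4a and Sema4g fell below the filter and were not tested when either quiescent library was left out.

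Plexins, the receptors of semaphorins, split within the A and B types. Plxnc1, the receptor of Sema7a, scored 5123 and 5027 in quiescent and 16 and 25 in activated libraries, a change of -7.66 ± 0.18 (limma, adjusted p = 2.3e-08). Its change was opposite in sign to that of its ligand. Plxna2 scored 2250 and 2385 in quiescent and 84 and 88 in activated libraries (-4.67 ± 0.10, limma, adjusted p = 1.2e-08). Plxnd1, a receptor known from blood vessel patterning, went from 5563 in both quiescent libraries to 440 and 492 (-3.57 ± 0.14, limma, adjusted p = 2.1e-07). Plxnb1 fell by 2.67 and Plxna4 by 0.56 on the log2 scale, and Plxna4 was not called without quiescent library b or activated library b.

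Against these, Plxna3 rose from 4 and 7 to 87 and 106, by 3.28 ± 0.22 (limma, adjusted p = 4.5e-06). Plxna3 lies on the X chromosome. Plxnb2, a receptor of class 4 semaphorins, scored 1572 and 1602 in quiescent and 2036 and 2106 in activated libraries, a small rise of 0.38 ± 0.08 (limma, adjusted p = 0.0032) that was not called with median-ratio scaling. Plxna1 stood at 1912 and 1936 against 2022 and 2076 and was not called (0.09 ± 0.20, limma, adjusted p = 0.7).

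Both neuropilins, co-receptors of class 3 semaphorins and of VEGF, fell, but by different amounts. Nrp2 scored 12562 and 12566 in quiescent and 340 and 350 in activated libraries, a change of -5.17 ± 0.07 (limma, adjusted p = 2.5e-09). Nrp1 scored 10507 in both quiescent libraries and 3895 and 4169 in activated libraries, a change of -1.38 ± 0.06 (limma, adjusted p = 3.8e-07). Activated cells thus kept Nrp1 at a high score and Nrp2 at a low one.

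The Eph receptors held the member that rose by most after Sema7a. Epha4, a tyrosine kinase receptor that binds ephrins of both types, scored 93 and 59 in quiescent and 3512 and 3514 in activated libraries. Its change was 5.47 ± 0.17 (limma, adjusted p = 7.1e-08). Among the B-type ligands Efnb1, on the X chromosome, rose from 422 and 410 to 930 and 916 (1.14 ± 0.07, limma, adjusted p = 1.7e-06). Efnb2, the ligand of Ephb4 that marks arterial endothelium, scored 440 and 454 in quiescent and 224 and 316 in activated libraries, a change of -0.74 ± 0.18 (limma, adjusted p = 0.0062). Its receptor Ephb4, which marks venous endothelium, fell from 2076 and 2168 to 632 and 642 (-1.73 ± 0.07, limma, adjusted p = 1.9e-07).

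The lipid-anchored ephrin-A ligands had low scores. Efna3 was at 0 and 1 in quiescent libraries and at 18 in both activated libraries (2.07 ± 0.24, limma, adjusted p = 1e-04), while its neighbour Efna1, 32.8 kb away on chromosome 3, went from 76 and 81 to 14 and 15 (-2.10 ± 0.23, limma, adjusted p = 7.1e-05). Efna5 scored 54 and 31 against 80 and 81, a change of 0.89 ± 0.26 (limma, adjusted p = 0.013) that was lost without quiescent library b, without either activated library and with median-ratio scaling. Efna2 and Efnb3 fell, both with scores of 36 or less. Efna2 was not called without quiescent library b or activated library b, and Efnb3 fell below the filter without either quiescent library.

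Of the other Eph receptors, Epha7 rose by 0.41 and the kinase-dead Ephb6 by 0.51, with adjusted p of 0.014 and 0.044 in limma. Neither was called with median-ratio scaling or without activated library b. The call of Ephb6 was lost under 9 of the 16 alternatives, among them no filter, a replicate block and only the libraries compared. Epha1 fell by 1.71 on the log2 scale at scores of 44 or less, and its fall is not independent of the filter. Epha2, the receptor of Efna1, stood at 562 and 634 against 594 and 626, and Epha3 at 41 and 29 against 26 and 20, and neither was called. With median-ratio scaling both were called lower, and the change of Epha2 went from 0.03 to -0.25 (limma, adjusted p = 0.023). Epha3 was also called lower with a replicate block and with one common variance prior.

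All 4 Robo receptors and all 3 netrins in the table fell. Robo4, a Robo family receptor best known from endothelium, scored 2528 and 2670 in quiescent libraries and 12 and 1 in activated libraries, a change of -8.01 ± 0.44 (limma, adjusted p = 1.4e-06). This was the largest fall on that scale, but with a pseudocount of 20 it was -6.66 and that of Plxnc1 -6.98, and by ratio of mean scores Sema6a (602) and Unc5a (422) were ahead of Robo4 (399.8). Robo3, whose gene ends 554 bases from that of Robo4, went from 16 and 27 to 1 in both and fell below the filter without either quiescent library. Robo3 scored 10 or more in quiescent libraries alone, so its fall is not independent of the filter. Robo1 scored 425 and 404 against 132 and 155, and Robo2 scored 204 and 172 against 30 and 36, changes of -1.50 ± 0.15 and -2.34 ± 0.19. Ntn1, the best-studied netrin, fell from 1451 and 1572 to 68 and 92 (-4.17 ± 0.18, limma, adjusted p = 3.4e-07). Ntn4, a netrin of basement membranes, fell by 1.19 and Ntn3 by 1.47 on the log2 scale, the latter from scores of 18 and 47 and not called without quiescent library b or either activated library. Slit ligands are not analysed here.

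The Unc5 receptors, dependence receptors for netrins, moved apart. Unc5b scored 1874 and 1912 in quiescent and 7724 and 7290 in activated libraries, a rise of 1.98 ± 0.05 (limma, adjusted p = 3.5e-08). Unc5a scored 232 and 190 in quiescent and 1 and 0 in activated libraries (-5.29 ± 0.20, limma, adjusted p = 1.9e-07). Plxna4os1, a transcript on the strand opposite to Plxna4 and inside that gene, scored 39 and 36 against 11 in both activated libraries (-1.41 ± 0.18, limma, adjusted p = 2e-04). None of its 1977 exon bases overlap an exon of Plxna4, and whether reads were counted by strand is not given in the sources used here, so reads from unspliced Plxna4 cannot be told apart from it. Beside these falls, all 20 endothelial markers and 17 of 18 Kupffer cell and macrophage markers were called lower.

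Scores per kilobase of exon put the members on 1 scale within a group (gene lengths from GENCODE M21). In quiescent cells the co-receptors and 2 plexins led: Nrp1 stood at 1074, Nrp2 at 1061, Plxnd1 at 762, Plxnc1 at 608 ± 8.13 and Robo4 at 490.2 ± 18.9 (SD, n = 2). In activated cells Unc5b led at 1199.6 ± 49.0, ahead of Sema7a at 461 ± 48.5, Epha4 at 436 ± 0.18 and Nrp1 at 412 ± 19.8. The last 3 differed by no more than about the SD of Sema7a and are not separated in order. With the longest transcript as length, Nrp1 ranked first in quiescent cells at 2883 and second in activated cells at 1106, behind Unc5b at 1279. The leading guidance receptor was thus a neuropilin in quiescent libraries and Unc5b in activated libraries under both lengths. In quiescent libraries the median score was 5333.75 over endothelial markers and 5066.5 over Kupffer cell and macrophage markers. Over markers of quiescent stellate cells it was 560. Which cells the scores of the members came from was not tested.

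**Figure D2:**
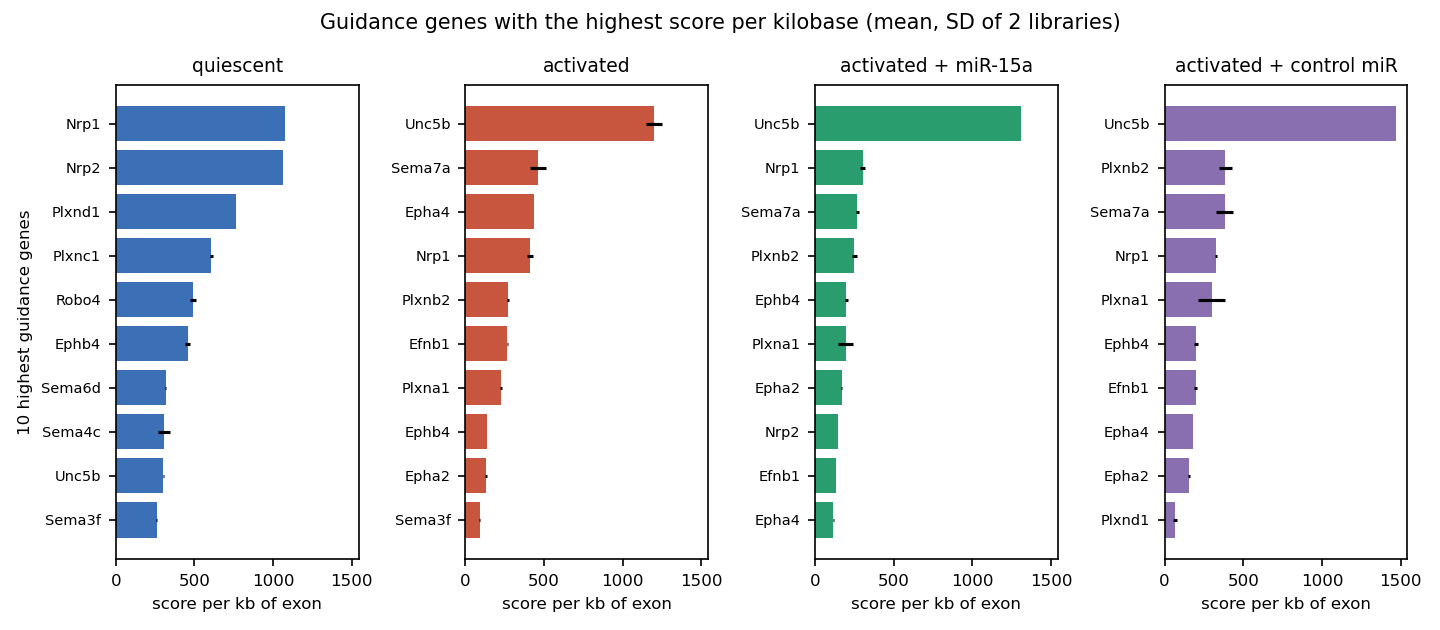
Bars give the mean score per kilobase of exon of the 10 highest guidance genes in each group, with the SD of 2 libraries as the black line. Nrp1 and Nrp2 lead in quiescent libraries at 1074 and 1061, and Unc5b leads in the other 3 groups.

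The main test of the microRNA set the miR-15a libraries against those with the control, all from activated cells. Here 13 members were higher and 11 lower with miR-15a, or 26% and 22% of those tested. Of all genes tested 29.9% were called, 14.4% higher and 15.4% lower. The split of all genes moved from 1897 higher and 2029 lower to 2311 and 1584 with median-ratio scaling. By more than 1 on the log2 scale, 8 members were higher, where 5.16% of all genes were, and 3 lower, where 1.67% were. Without miR-15a library b or control library b the count of lower members was 7, and that of all genes 1090 and 1065. The members' fold changes ran from -1.14 to 4.40 with a median of -0.24, and the median of all genes was -0.07.

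Robo4 had the largest rise. It scored 572 and 528 with miR-15a and 16 and 28 with the control, a change of 4.40 ± 0.44 (limma, adjusted p = 0.00042). The miR-15a libraries lay between the activated and the quiescent ones. Robo2 scored 71 and 74 against 36 and 50 and was called higher (0.71 ± 0.19, limma, adjusted p = 0.027), a call that was lost without either miR-15a library, without control library a and with only the 4 libraries compared. Robo1 and Robo3 were not called.

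Among the semaphorin receptors Nrp2, Plxnc1 and Plxna2 were higher with miR-15a. Nrp2 scored 1716 and 1743 with miR-15a and 400 and 452 with the control, a change of 2.01 ± 0.07 (limma, adjusted p = 2.9e-06), the smallest p of the members. Plxnc1 scored 166 and 134 against 26 and 23 (2.39 ± 0.18, limma, adjusted p = 0.00011). Plxna2 scored 297 and 313 against 111 and 130 (1.31 ± 0.10, limma, adjusted p = 9e-05). These 3 genes kept their calls under all 16 alternatives that could be fitted. Nrp1 stood at 3048 and 2866 against 3264 and 3168 and was not called.

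Plxna3 and Plxnb2, the plexins that rose on activation, went the other way. Plxna3 scored 94 and 66 with miR-15a and 170 and 179 with the control, a change of -1.10 ± 0.22 (limma, adjusted p = 0.0097), which was not called without miR-15a library b or control library b. Plxnb2 scored 1856 and 2022 against 2758 and 3203 (-0.62 ± 0.08, limma, adjusted p = 0.0016). For both, the miR-15a libraries were close to activated cells without a microRNA, at 87 and 106 for Plxna3 and 2036 and 2106 for Plxnb2, and the control libraries were the higher ones. Plxna1, at 2063 and 1474 against 2168 and 3263, and Plxna4 were not called.

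The class 6 semaphorins were higher with miR-15a, apart from Sema6c. Sema6b scored 98 and 108 with miR-15a and 11 and 19 with the control, a change of 2.46 ± 0.28 (limma, adjusted p = 0.00076). Sema6a scored 37 and 46 against 8 and 12 (1.64 ± 0.23, limma, adjusted p = 0.002), and Sema6d scored 193 and 199 against 98 and 101 (0.94 ± 0.07, limma, adjusted p = 0.00013). Sema6c stood at 7 and 10 against 16 in both control libraries and missed the threshold (-0.65 ± 0.20, limma, adjusted p = 0.05). Sema4c was higher by 0.42 ± 0.10 (limma, adjusted p = 0.021), with scores of 195 and 204 against 152 and 144, and was not called without either miR-15a library, without control library b or with only the libraries compared.

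Other semaphorins were lower. Sema5a scored 62 and 50 with miR-15a and 104 and 130 with the control, a change of -1.0 ± 0.17 (limma, adjusted p = 0.0054). Activated cells without a microRNA were at 82 and 88 for Sema5a, below the control. Against them Sema5a was also called lower with miR-15a, a call lost with median-ratio scaling and with only the libraries compared. Sema4d scored 2 in both miR-15a libraries and 10 in both control libraries (-1.10 ± 0.21, limma, adjusted p = 0.0079), near the floor of the table. Activated cells without a microRNA were at 3 and 5 for Sema4d, and miR-15a against them was not called (limma, adjusted p = 0.22). Sema3f scored 252 and 196 against 354 and 324 (-0.60 ± 0.12, limma, adjusted p = 0.0097), a call lost with only the libraries compared. Sema3b scored 52 and 46 against 100 and 90 (-0.89 ± 0.23, limma, adjusted p = 0.024), a call lost when any miR-15a or control library was left out. Sema7a stood at 916 and 866 against 1138 and 1386 and was not called (-0.49 ± 0.19, limma, adjusted p = 0.094).

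**Figure D3:**
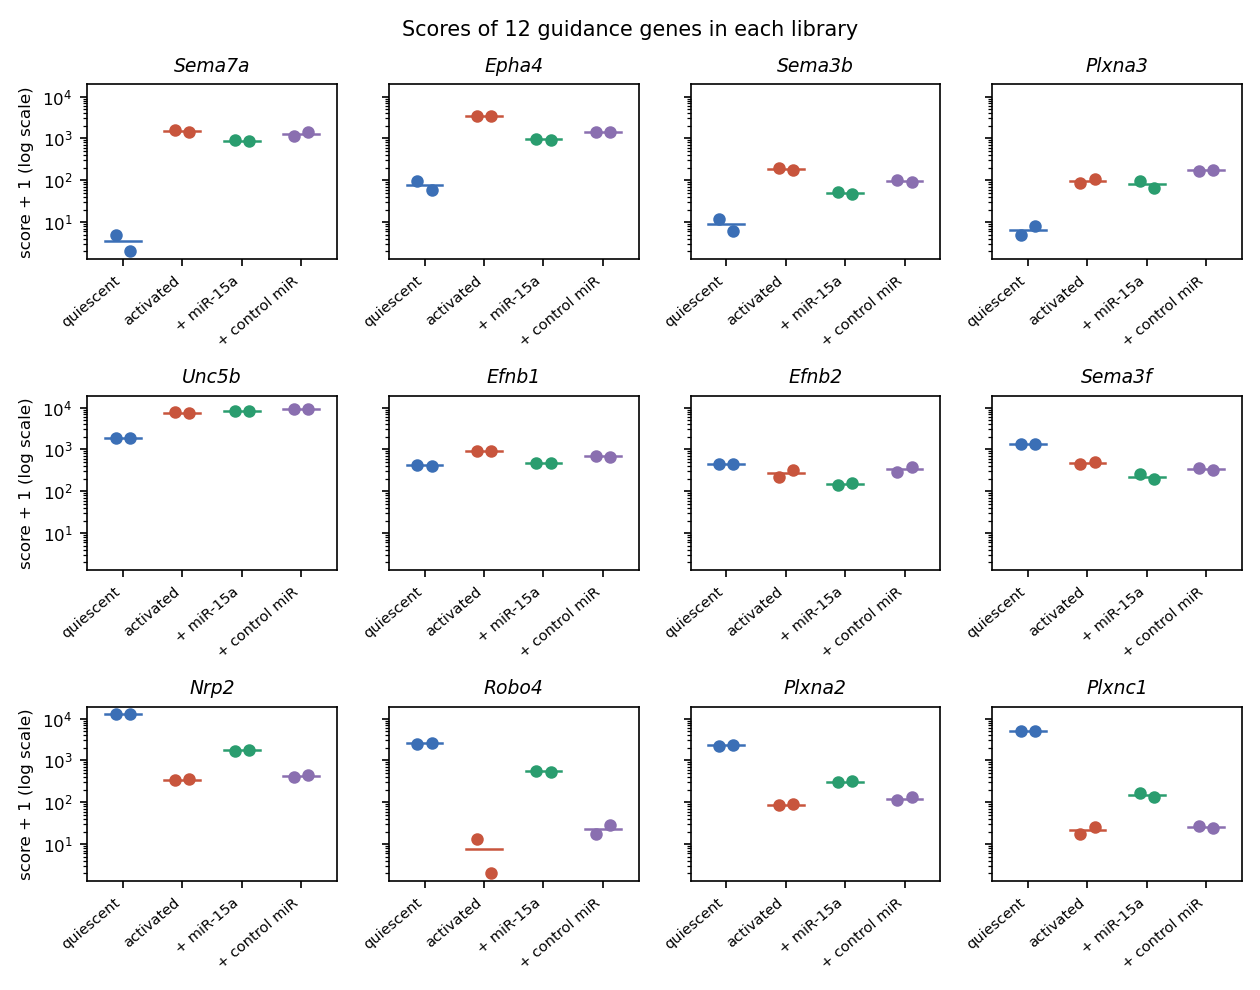
Points give the score + 1 of 12 guidance genes in each library on a log axis, with a line at the group mean. Robo4, Nrp2, Plxna2 and Plxnc1 are highest in quiescent, lowest in activated and in between with miR-15a, and Sema7a and Epha4 are lowest in quiescent libraries.

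Of the 3 B-type ephrins 2 were lower with miR-15a. Efnb2 scored 137 and 160 with miR-15a and 296 and 374 with the control (-1.14 ± 0.18, limma, adjusted p = 0.0036). Efnb1 scored 465 and 468 against 710 and 662 (-0.55 ± 0.07, limma, adjusted p = 0.00092). Both calls held under all 16 alternatives, and neither gene holds a seed match in its longest annotated 3′ UTR. Efnb3, at 6 and 1 against 7 and 8, was not called (limma, adjusted p = 0.22). Of the A-type ligands, Efna1 was higher at 39 and 31 against 16 and 9 (1.22 ± 0.23, limma, adjusted p = 0.0072), and was not called with only the libraries compared. Efna5 was lower at 48 and 52 against 78 and 110 (-0.83 ± 0.26, limma, adjusted p = 0.046), a call that was lost under 11 of the 16 alternatives.

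Of the Eph receptors, Epha4 scored 956 and 930 with miR-15a and 1431 in both control libraries, a change of -0.60 ± 0.17 (limma, adjusted p = 0.034). The control libraries were tied at a shared step of the table, and the call was lost under 8 of 16 alternatives, among them leaving out any library of the 3 activated groups. Ephb6 scored 48 and 36 against 80 and 76 (-0.83 ± 0.20, limma, adjusted p = 0.018), a call lost without miR-15a library b, without either control library and with only the libraries compared. The other 5 Eph receptors tested were not called.

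For the netrin axis, Ntn4 scored 259 and 200 with miR-15a and 150 and 173 with the control (0.49 ± 0.13, limma, adjusted p = 0.03), a call that was lost when any of 6 libraries was left out. Activated cells without a microRNA were at 261 and 268, and miR-15a against them was not called (-0.21 ± 0.13, limma, adjusted p = 0.24). Unc5a was higher at 15 and 12 against 5 and 6 (0.81 ± 0.20, limma, adjusted p = 0.02), and that call was lost without miR-15a library a or either control library. Unc5b stood at 8204 in both miR-15a libraries and 9200 in both control libraries and was not called (-0.17 ± 0.05, limma, adjusted p = 0.051). Plxna4os1 scored 29 in both miR-15a libraries and 6 and 9 in the control (1.45 ± 0.18, limma, adjusted p = 0.0012), while Plxna4 was not called. Beside these changes, 17 of 20 endothelial markers and 17 of 18 Kupffer cell and macrophage markers were called higher with miR-15a, and 1 of each lower.

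**Figure D4:**
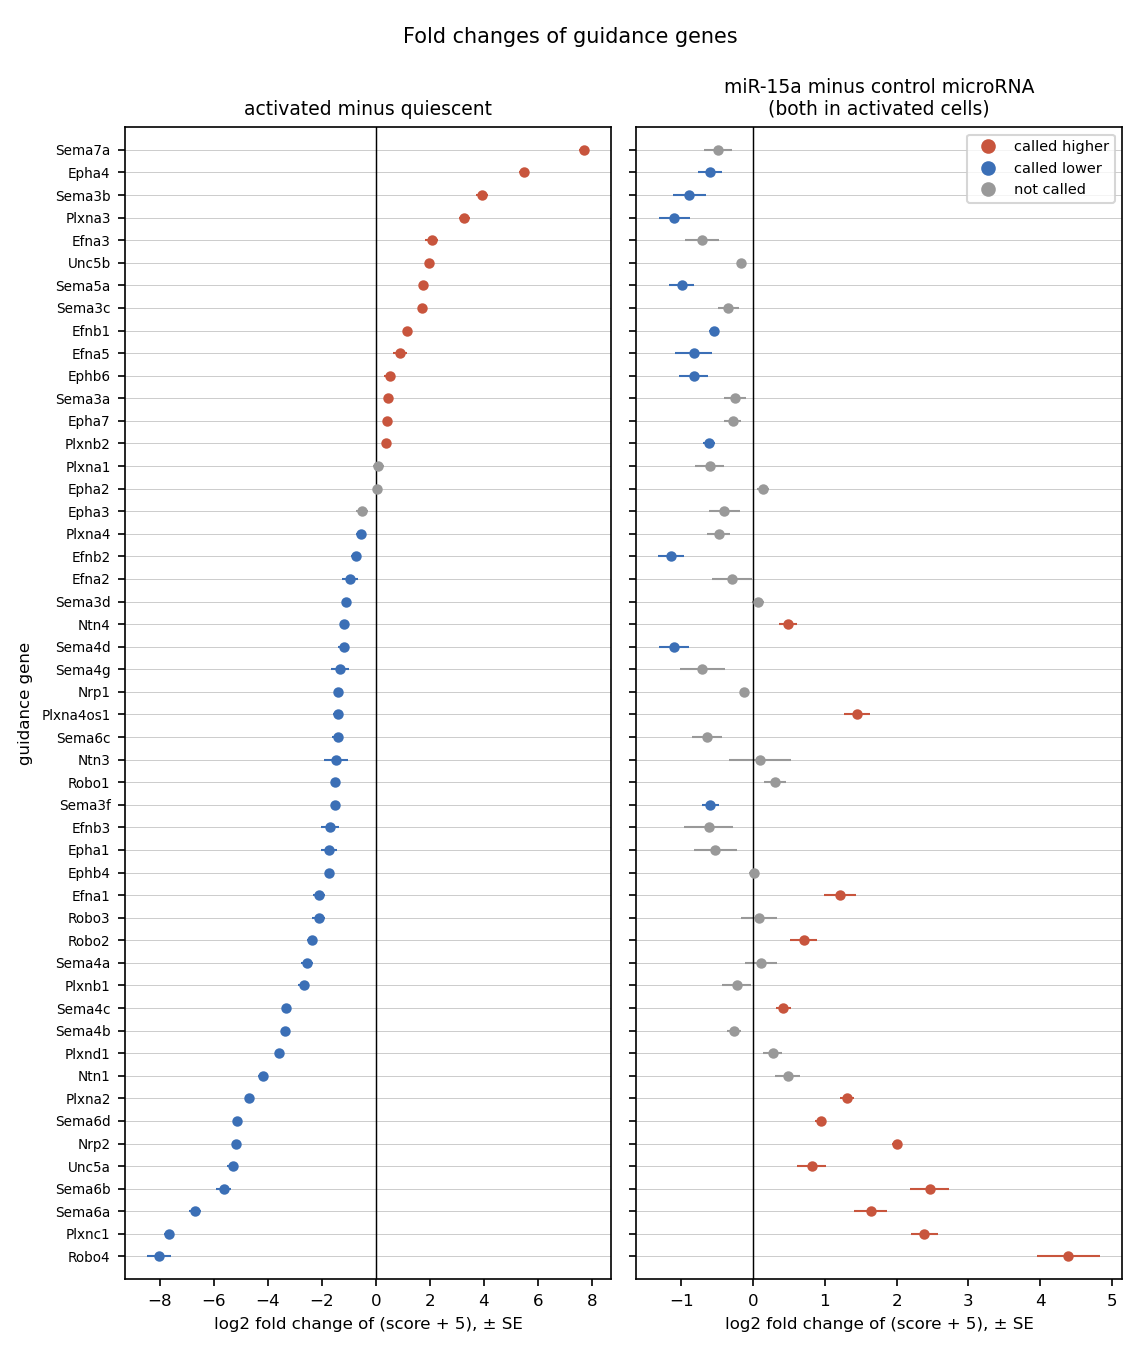
Points give the log2 fold change of score + 5 with its SE for the 50 guidance genes tested, ordered by the change on activation, for activated minus quiescent cells (left) and miR-15a minus control microRNA (right). Red is called higher, blue lower and grey not called, and Sema7a and Robo4 stand at the ends of the left panel.

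The comparisons of activated with quiescent cells and of miR-15a with the control share no library, though 1 fit gave both. Of the 14 members that rose on activation, 8 were lower with miR-15a, 6 were not called, and limma called none higher (0 at an unadjusted p under 0.05). Of the 33 that fell, 13 were higher with miR-15a, 3 were lower (Efnb2, Sema3f and Sema4d) and 17 were not called. Of the members called here with miR-15a against the control, Efna5, Plxna3, Plxnb2, Ntn4 and Sema4d were not called with miR-15a against activated cells. Over all genes tested, 1226 rose and were lower with miR-15a, 372 rose and were higher, 4370 rose and were not called, 1357 fell and were higher, 456 fell and were lower, and 2670 fell and were not called. Epha2, Epha3 and Plxna1 were called in neither comparison.

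The distance covered was small for most members that had fallen. As a share of the quiescent level, the mean with miR-15a minus the mean with the control had a median of 2.68% over the 22 members that fell on activation from a quiescent mean of at least 100, a limit chosen after the values were seen. It was 20.3% for Robo4, 15.7% for Robo2, 10.4% for Nrp2, 8.66% for Sema6b, 7.96% for Plxna2 and 2.47% for Plxnc1. It was negative for 6 members, down to -8.53% for Sema3f, -23.7% for Plxna4 and -41.7% for Efnb2. Of these 6, only Sema3f and Efnb2 were called lower with miR-15a. Plxna4 was not called, at 252 and 260 with miR-15a against 296 and 435 with the control. The 22 members include others that were not called in this comparison. The same share had a median of 8.02% over 20 endothelial markers, from -11.6% for Flt1 to 39.97% for Erg, and of 10.6% over 17 macrophage markers, from 1.5% for Csf1r to 41.1% for Fcgr1. The part of either marker set in the members' values was not tested.

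**Figure D5:**
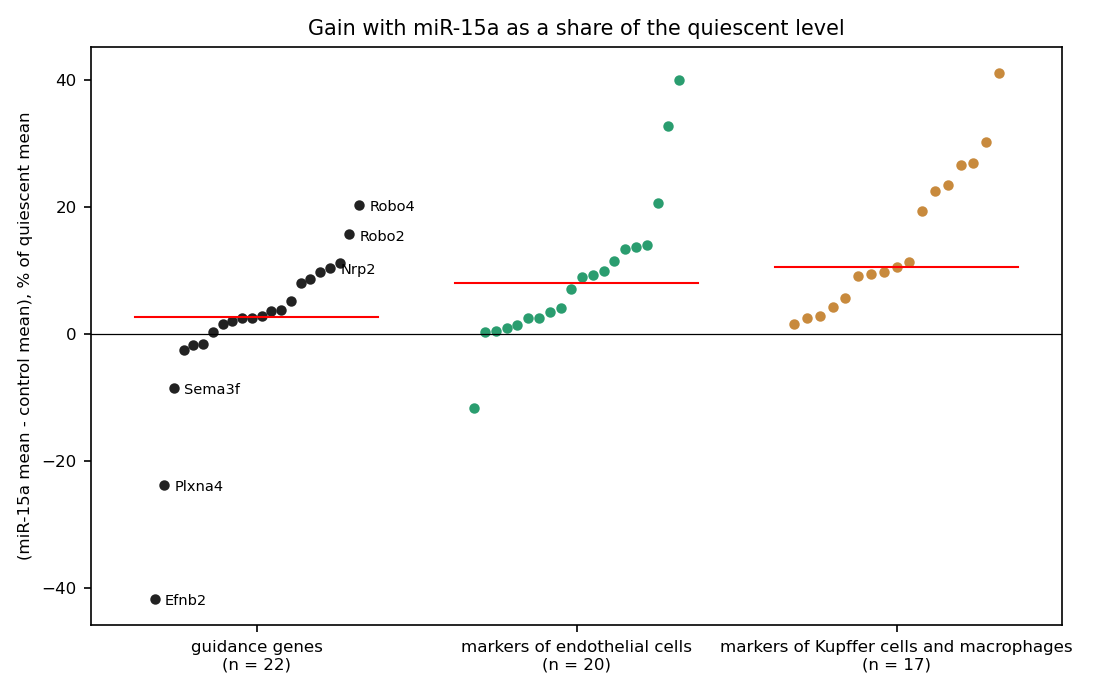
Points give the mean score with miR-15a minus the mean with the control, as a percent of the quiescent mean, for genes that fell on activation from a quiescent mean of at least 100, with the median as a red line. Guidance genes have a median of 2.68%, endothelial markers 8.02% and macrophage markers 10.6%, and Efnb2, Plxna4 and Sema3f lie lowest among the guidance genes.

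Activated cells without a microRNA gave another reference for miR-15a, and it shares the miR-15a libraries with the comparison above. Here 16 members were higher and 13 lower with miR-15a, where 38.4% of all genes were called, 16.8% higher and 21.6% lower. With median-ratio scaling the members' split moved to 19 higher and 9 lower, and that of all genes from 2204 and 2841 to 3113 and 1645. The lower count was 8 without activated library a and 6 without activated library b, and that of all genes 1554 and 1129. By more than 1 on the log2 scale, 11 members were higher and 3 lower, against 6.28% and 2.67% of all genes.

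Robo4 was higher by 5.78 ± 0.44, Sema6a by 2.97 ± 0.23, Plxnc1 by 2.62 ± 0.18, Sema6b by 2.38 ± 0.28 and Nrp2 by 2.31 ± 0.07 in that comparison. Epha4 was lower by 1.89 on the log2 scale, from 3512 and 3514 to 956 and 930 (limma, adjusted p = 0.00017). Sema3b (-1.83 ± 0.23), Sema3f (-1.06 ± 0.12), Efnb1 (-0.98 ± 0.07) and Epha7 (-0.88 ± 0.12) followed.

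Activated cells with the control microRNA were also set against activated cells without one, which shares libraries with both microRNA comparisons above. There 9 members were higher and 7 lower, where 13.8% of all genes were called, 7.18% higher and 6.61% lower. Fitted on only the 4 libraries compared, limma called 0 members higher and 1 lower, with 15 higher at an unadjusted p under 0.05, and that fit has fewer residual degrees of freedom. The higher count was also reduced to 5 without either quiescent library, 4 and 2 without activated libraries a and b, and 3 without control library b, and the lower count to 2 and 1 without activated libraries a and b, and 4 and 3 without control libraries a and b. With median-ratio scaling all genes split into 1371 higher and 494 lower, from 944 and 869.

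By more than 1 on the log2 scale, 1 member was higher, where 1.79% of all genes were, and 1 lower, where 0.662% were. The higher one was Sema6a, at 8 and 12 against 0 and 2 (1.33 ± 0.23, limma, adjusted p = 0.012). The lower one was Epha4, at 1431 in both control libraries against 3512 and 3514 (-1.29 ± 0.17, limma, adjusted p = 0.0048). The change of Epha4 between miR-15a and the control was -0.60, as given above, and these values share the control libraries. Sema3b was lower by 0.94 and Sema3f by 0.47 on the log2 scale, and Ntn4, at 150 and 173 against 261 and 268, by 0.70. Epha7 was lower at 112 and 106 against 160 and 173 (-0.59 ± 0.12, limma, adjusted p = 0.021). Among those higher were Unc5a (0.94 ± 0.20, at scores of only 5 and 6 against 1 and 0), Plxna3 (0.83 ± 0.22), Sema3a (0.59 ± 0.16) and Ephb4 (0.53 ± 0.07). Their adjusted p in limma were 0.026, 0.048, 0.049 and 0.0037 in that order. Plxna3, Sema3a, Sema3b and Sema3f were not called with a pseudocount of 1. Plxna3 and Sema3a also lost their calls without the filter, Sema3f with median-ratio scaling and Unc5a with a pseudocount of 20. The change of Unc5a ran from 0.315 to 2.196 over the alternatives.

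A seed match for miR-15a lay in the longest 3′ UTR of 15 of 50 members with an annotated 3′ UTR, or 30.0%, against 23.9% of 12533 genes in the table. The members' median 3′ UTR length was 1501 bases and that of all genes 1166. With all annotated 3′ UTRs of a gene combined the share was 34.0% against 25.0%, and for matches followed by an A it was 10% against 4.48%. A match is a string of letters and not evidence of binding.

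Of the 15 members with a match, 3 were higher with miR-15a than with the control (Plxna2, Plxnc1 and Sema6d), 1 was lower (Sema5a) and 11 were not called, with a median change of -0.27. Of the 34 tested members without a match, 9 were higher and 10 lower, with a median of -0.14. Against activated cells without a microRNA, 3 members with a match were higher and 4 lower (Epha7, Plxnb1, Sema4b and Sema5a), with a median of -0.02. The calls of Plxnb1, Sema4b and Sema5a were lost with median-ratio scaling and with only the libraries compared. Of those without a match, 12 were higher and 9 lower in that comparison, with a median of 0.016. Epha7, whose match is followed by an A, scored 83 and 94 with miR-15a, 112 and 106 with the control and 160 and 173 in activated cells. It was called lower against activated cells (-0.88 ± 0.12, limma, adjusted p = 0.0013) and not against the control (-0.29 ± 0.12, limma, adjusted p = 0.11), and the control was itself called lower than activated cells, as given above.

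Other genes of these pathways came from 4 lists of 20 genes, of which 62 in all were tested. On activation 29 rose and 22 fell, beside 45.4% and 34.1% of all genes, and with miR-15a against the control 6 were higher and 25 lower, beside 14.4% and 15.4%. Of 17 semaphorin and plexin signalling genes tested, 10 rose and 5 fell on activation, and 1 was higher and 10 lower with miR-15a. Of 16 Eph and ephrin signalling genes, 8 rose and 7 fell, and 3 were higher and 5 lower. Of 18 Slit, Robo and netrin signalling genes, 8 rose and 7 fell, and 1 was higher and 7 lower. Of 11 other receptors and ligands, 3 rose and 3 fell, and 1 was higher and 3 lower. Among the other receptors and ligands, Neo1, the netrin receptor neogenin, rose by 2.69 ± 0.08 on activation (limma, adjusted p = 6.7e-08) and was lower by 0.34 on the log2 scale with miR-15a. Flrt2, a ligand of Unc5 receptors, rose from 290 and 248 to 2250 in both activated libraries (3.05 ± 0.08, limma, adjusted p = 2.8e-08) and was lower by 0.47 with miR-15a.

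Downstream, Enah, an actin regulator of the Ena/VASP family, rose by 6.32 ± 0.13 (limma, adjusted p = 1.1e-08). Dpysl3, a collapsin response mediator of semaphorin signalling, rose by 2.68 and was lower by 0.55 with miR-15a. Sdcbp, the syntenin scaffold that binds ephrin-B tails, fell by 4.23 on activation and was higher by 1.90 with miR-15a (limma, adjusted p = 2.8e-06). The other called genes of smallest p were Mical1 (3.72 ± 0.09), Kalrn (3.08 ± 0.07) and Gpc1 (1.48 ± 0.07) on activation. With miR-15a against the control they were Vav3 (2.25 ± 0.19), Fes (0.63 ± 0.10), Vasp (0.37 ± 0.06) and Myo9b (-0.63 ± 0.08).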

How the data were processed

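RNA was measured in 8 libraries of 4 groups. Total RNA from TRIzol went into TruSeq libraries read single-end on a NextSeq, per the labels' protocols. The submitters' processing notes name STAR, Subread, featureCounts and mm10, with no versions, and strand handling is not given in the sources used here. The name of the deposited table calls it read counts, yet it holds a normalised score: the same 910 distinct numbers recur in every library, with 10 genes tied at the maximum of 125636, as quantile normalisation and rounding would leave, a step that no label or header records. Count models were therefore not used.

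Samples were grouped by the labels. limma 3.58.1 (R 4.3.3) was fitted to log2(score + 5) with 4 group means over all 8 libraries, a variance prior that follows the mean level, no replicate block and 4 residual degrees of freedom. The 13150 of 14162 genes that scored 10 or more in 2 or more libraries were tested, with Benjamini-Hochberg adjustment over all of them. The procedure was tested on simulated data with independent values, without the shared steps of this table and with few genes changed. That test therefore does not cover these features of the real data. Replicate libraries correlated at a Pearson r between 0.986 and 0.99 across genes. The members and lists were chosen with earlier results of these data known. Values in every library are given for the 10 largest called changes in each direction on activation and with miR-15a against the control and for the called member of smallest p in each role group. The 5 largest in each direction are named for the other 2 comparisons, with up to 2 called genes of smallest p per pathway list. Other members named were chosen after their values were seen. All 51 members matched GENCODE M21 (GRCm38) by symbol. The alternatives were other pseudocounts, filters, scaling, variance prior, the replicate block, only the libraries compared and each library left out.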

Additional observations from a re-analysis of the deposited data

How the results depend on the processing

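Counts of members called kept within 1.5 times of those reported except as follows. With median-ratio scaling 9 members rose on activation. When single libraries were left out, members lower with miR-15a against the control ranged from 7 to 13, members lower with miR-15a against activated cells from 6 to 14, and members higher and lower with the control against activated cells from 2 to 7 and from 1 to 6. With only the libraries compared, the control against activated cells gave 0 higher and 1 lower. That fit has fewer libraries, and for the others the cause was not tested. Leaving a library out leaves 1 in its group, which is assumed to vary like the other groups.

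Counts over all genes also moved by more than 1.5 times. With only the libraries compared, miR-15a against the control gave 1175 higher and 918 lower, and the control against activated cells 158 and 118. With median-ratio scaling, 1645 were lower with miR-15a and 494 with the control against activated cells, and without the filter the latter was 1630. Over the single libraries whose absence moved a count that far, genes lower with miR-15a ranged from 1065 to 1269 against the control and from 1129 to 1865 against activated cells, and genes higher and lower with the control against activated cells from 365 to 475 and from 138 to 247.

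The correlation of the differences between libraries a and b lay between -0.067 and 0.087 over pairs of groups. No difference shared by the letters was thus seen, but whether they pair the libraries is not known, since weak pairing could go unseen. With a replicate block, members higher and lower were 13 and 34 on activation, 13 and 10 for miR-15a against the control, 17 and 12 against activated cells, and 8 and 6 for the control against activated cells.

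The change of Epha2 on activation turned from 0.03 to -0.25 with median-ratio scaling and was then called (limma, adjusted p = 0.023). Among the members named by rule in a comparison, the fold changes that turned sign were not called in either setting. They were Plxnb2 with miR-15a against activated cells, at 0.048 with median-ratio scaling, and, over the leave-one-out fits, Ephb4 with miR-15a against the control (-0.048 to 0.068). For the control against activated cells they were Efna1 (-0.48 to 0.11), Efna5 (-0.043 to 0.43), Ntn1 (-0.085 to 0.33), Plxnc1 (-0.026 to 0.49), Plxnd1 (-0.21 to 0.25) and Sema6b (-0.46 to 0.29). The unknown depth limits what can be said of members with scores under about 30.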

Other observations

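Neighbouring guidance genes moved both ways on activation. Of the 4 member pairs under 100 kb apart, 2 went opposite ways: Sema3b rose by 3.92 and Sema3f fell by 1.51 on the log2 scale, and Efna3 rose by 2.07 and Efna1 fell by 2.10. The other 2 fell together: Robo3 fell by 2.11 and Robo4 fell by 8.01, and Plxna4 fell by 0.56 and Plxna4os1 fell by 1.41. The fall of Robo3 is not independent of the filter on low scores, as given above. Reads from unspliced Plxna4 cannot be told apart from Plxna4os1. With miR-15a against the control, Sema3b and Sema3f were both lower, while Robo4 was higher and Robo3, at 4 and 5 against 3 and 5, was not called.

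The ligand and receptor pair Sema7a and Plxnc1 was high in different groups. Sema7a scored 4 and 1 where Plxnc1 scored 5123 and 5027, in quiescent cells, and 1634 and 1408 where Plxnc1 scored 16 and 25, in activated cells. With miR-15a, Plxnc1 stood at 166 and 134 and Sema7a at 916 and 866. With the control, Plxnc1 stood at 26 and 23 and Sema7a at 1138 and 1386. Sema7a was not called with miR-15a against the control (limma, adjusted p = 0.094).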
